A study of Mus musculus with 2 samples.

Results

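Nucleotide excision repair and lesion bypass were followed through 38 mouse genes, chosen by symbol for their known roles in damage recognition, TFIIH, incision, gap filling, ligation and translesion synthesis. All 38 matched 1 Ensembl identifier each among the 55487 genes of the deposited table, and all 38 passed the filter of a mean of at least 1 FPKM, as did 12561 genes in total. FPKM is the number of fragments scaled to gene length and library size, here as deposited by the authors. The cells were osteoblasts of young or old mice driven into apoptosis, with 1 RNA library per age, so differences could not be checked against replicates and no p-value is given. In both groups bone pieces were cultured for 3 days, adherent cells were passaged 3 times to obtain marrow stromal cells, and osteogenic medium was applied for 3 days. Both groups were then exposed to ultraviolet light for 0.5 h, which left more than 90% of cells positive for Trypan Blue, a dye that enters dying cells. The young library also carries the treatment label day 0 and the old one day 5, although the protocol field for treatment reads none, so age and that label cannot be told apart. The labels used here name neither strain nor age in months nor how many animals or cultures made up a library. No library of cells without ultraviolet exposure was analysed here, so each value describes exposed cells of both ages.

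Ultraviolet light joins neighbouring pyrimidines in DNA into bulky lesions, and nucleotide excision repair is the main route by which mammalian cells remove them. Lesions are found either across the whole genome by the XPC and DDB complexes or where RNA polymerase stalls, by the CSA and CSB proteins. TFIIH then opens the helix, XPA and RPA hold the bubble, nucleases cut on either side, and polymerases and ligases close the gap. Lesions that persist into replication are copied past by translesion polymerases, which are recruited by ubiquitin on the sliding clamp PCNA. TFIIH and its kinase also start transcription, and the gap-filling polymerases and DNA ligase 1 also replicate DNA, so these genes are not used in repair alone.

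The RefSeq table of start sites (GRCm38.p6) matched 31 of the 38 genes with 37 start sites, and the 250 bases before each site were searched on both strands for 6 motifs. The GC box (GGGCGG) was in 59.5% of these windows, against 32.7% of all 32851 windows and 58.8% of the 11562 windows of genes past the filter. The CCAAT box was in 35.1%, against 33.8% and 35.8%. An E2F-type motif (TTTNNCGC) was in 5.41%, against 4.28% and 7.25%, the p53 half-site in 5.41%, against 7.13% and 5.78%, and the CRE (TGACGTCA) in 0 windows, against 1.55% and 2.63%. The NRF1-type motif was in 8 of 37 windows, or 21.6%, against 3.74% of all windows and 8.39% of those of genes past the filter. Median GC content was 61.6% in these windows and 52.4% in all. Matches may overlap one another and are a description of letters, not of binding. The NRF1-type matches are shown because this motif had the highest share relative to windows of genes past the filter of the 6 searched. Polh held 3 matches, of which 1 is shown. Capitals mark the match, flanking bases are in lower case, and each reads 5′ to 3′ on the gene's strand.
Rad23b, chr4:55349869-55349898, plus strand: cttgcgaagtGCGCCTGCGCacgccggtgc
Ercc6, chr14:32513452-32513481, plus strand: gctcagcaagGCGCAGGCGCcgttggtcct
Uvssa, chr5:33378535-33378564, plus strand: ccgcgtcctcGCGCCTGCGCtgtggagccg
Ercc2, chr7:19381909-19381938, plus strand: tcaccgccatGCGCACGCGCcaattttccg
Gtf2h5, chr17:6079817-6079846, plus strand: atgacgtacgGCGCAGGCGCagtgagtcgg
Ercc4, chr16:13109632-13109661, plus strand: acacacgcgcGCGCACGCGCgctaacgctt
Rev1, chr1:38129753-38129782, minus strand: cgcgagcagcGCGCGTGCGCcgcgcccggt
Polh, chr17:46202739-46202768, minus strand: acccagcgctGCGCATGCGCcggagccgcc

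Whole windows are shown for Rad23b and Ercc5, a gene that was higher and a gene that was lower in the old library. They have the highest and the lowest log2 ratio among members with 1 start site and no GENCODE exon in the window. Capitals mark motif matches, which in Rad23b are 2 GC boxes, 1 CCAAT box and 1 NRF1-type match, and in Ercc5 are 1 CCAAT box and 1 E2F-type match.
Rad23b, chr4:55349792-55350041, plus strand: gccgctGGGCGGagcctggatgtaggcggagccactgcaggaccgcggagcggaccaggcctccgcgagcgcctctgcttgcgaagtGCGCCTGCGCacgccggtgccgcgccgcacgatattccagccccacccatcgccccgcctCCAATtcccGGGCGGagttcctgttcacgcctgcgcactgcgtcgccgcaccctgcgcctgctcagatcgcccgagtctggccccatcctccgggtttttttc
Ercc5, chr1:44147494-44147743, plus strand: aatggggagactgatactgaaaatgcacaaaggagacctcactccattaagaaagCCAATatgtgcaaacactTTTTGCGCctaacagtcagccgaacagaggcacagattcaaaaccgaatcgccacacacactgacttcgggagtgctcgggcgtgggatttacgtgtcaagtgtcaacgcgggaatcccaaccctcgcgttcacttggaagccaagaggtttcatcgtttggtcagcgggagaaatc

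The young library held 16333396 reads and the old 18114336. Osteoblast collagen mRNA was abundant in both, with Col1a1 at 8568 FPKM (young) and 6788 FPKM (old), and Col1a2 at 7482 and 5636 FPKM. Ibsp (6.31 and 5.90 FPKM), Alpl (2.78 and 3.28 FPKM) and Bglap (0.464 and 0.836 FPKM) were low. The low value of Bglap is uncertain, since 55.2% of its sequence words are shared with Bglap2 and Bglap3. It rests on 3 young and 6 old reads. The osteoblast regulators Runx2 (92.1 and 72.7 FPKM) and Sp7 (55.5 and 28.9 FPKM) were lower in the old library, and the matrix protein gene Spp1 was 7.74 [7.49 to 8.003] times higher there, at 224 and 1732 FPKM. Their part in the values of the repair genes was not tested. Of 7 monocyte and macrophage markers, 2 were at 0 in the young and 3 in the old, including Adgre1 and Itgam in both. The 0 of Itgam is uncertain, since 68.7% of its exon bases overlap Gm49368. The summed level of the 7 markers was 30.4 and 32.0 FPKM. Within that sum Lyz2 was at 21.3 and 18.4 FPKM, Cd68 at 4.51 and 4.36 FPKM and Cd14 at 4.49 and 9.15 FPKM, a ratio of 2.04 [1.59 to 2.63] for Cd14. Summed lymphocyte markers were at 0.126 and 0.455 FPKM, neutrophil markers at 0 and 0.285, endothelial markers at 0.357 and 0.323, erythroid markers at 0.205 and 0.0925, and adipocyte markers at 0.0524 and 0.356. In bulk RNA, fewer cells of a type and less RNA per cell cannot be told apart.

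As a whole the repair and bypass genes were near even between the libraries, with no gene at 2-fold in either direction. By role, gap filling and ligation had a median above 0, and transcription-coupled recognition, the TFIIH core and the incision nucleases had the lowest medians. The median log2 ratio of FPKM + 1, old over young, was −0.12 over the 38 genes, against −0.07 over all 12561 genes, whose interquartile range was −0.24 to 0.13. At 2-fold or more, 0 of 38 genes were higher and 0 lower, where 1.97% of all genes were higher and 0.868% lower. At 1.5-fold or more, 1 of 38 genes (2.63%) was higher, Lig1, and 0 were lower, against 5.52% and 4.47% of all genes. Among genes averaging 10 FPKM or more, 1 of 33 members was higher and 0 lower, against 3.56% and 2.52% of all genes there. The ratios of 27 of the 38 genes (71.1%) were below 0, as were those of 59.6% of all genes, and 11 were above 0, against 40.4% of all genes.

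Counting error alone was narrow for most of these genes. The 95% interval of each FPKM ratio was obtained from the split of a gene's reads between the libraries (Clopper-Pearson, exact). It covers counting error only, not animals or cultures, and copies made by PCR are not independent molecules. It lay wholly above 1 for 7 of the 38 genes (18.4%) and wholly below 1 for 15 (39.5%), against 20.5% and 33.5% of all genes. Among the 10641 genes with as many reads as these, from 151 to 21459 over both libraries, the shares were 21.7% and 36.8%. The members' shares were thus close to those of all genes with similar reads.

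**Figure D1:**
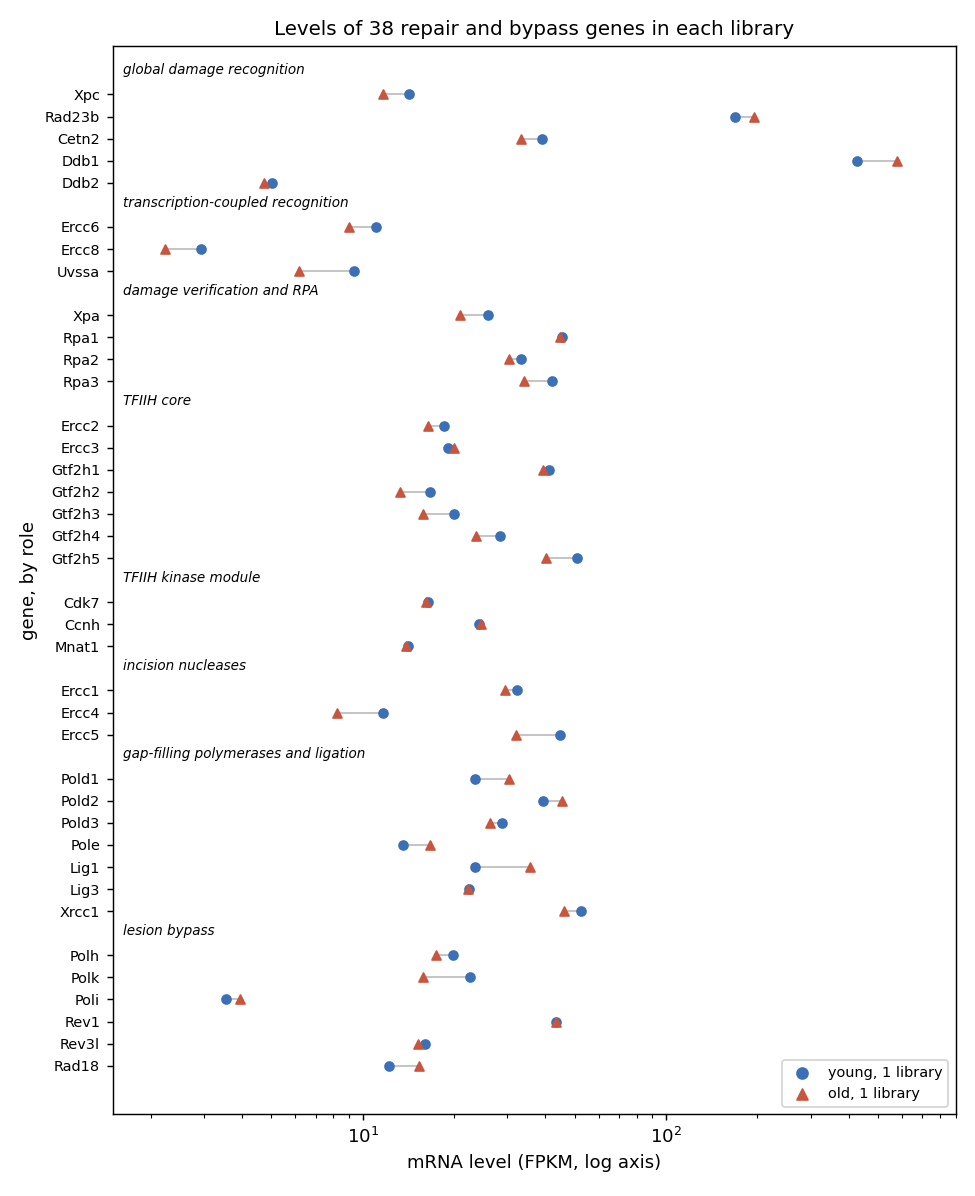
Level of each of the 38 genes in FPKM (horizontal log axis) in the young library (circles) and the old library (triangles), 1 library each, grouped by role. Ddb1 and Rad23b stand above all others, 30 genes lie between 10 and 60 FPKM in both libraries, and Ercc8 is lowest in both.

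Levels spanned a wide range, from Ercc8 at 2.93 FPKM (young) and 2.22 FPKM (old) to Ddb1 at 427 and 576 FPKM. In both libraries 30 of the 38 genes lay between 10 and 60 FPKM and 2 lay above 60 FPKM, Ddb1 and Rad23b. The other 6, under 10 FPKM in at least 1 library, were Ddb2, Ercc4, Poli and the 3 transcription-coupled genes Ercc6, Ercc8 and Uvssa. These levels rest on the mean length of each gene's annotated transcripts. With the length of all its exons merged, Ddb1 would be at 82.1 and 111 FPKM and Rad23b at 54.4 and 63.2 FPKM, still the 2 highest. The ratio of FPKM between the libraries does not depend on the length, but the log2 ratio of FPKM + 1 and the filter do. With merged exons Lig1 was at 0.57, under 1.5-fold, which left 0 genes there, and Ercc8 fell under the filter at a mean of 0.577 FPKM.

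Global damage recognition joins genes that were higher and genes that were lower in the old library. Ddb1, the adaptor of the CUL4 ubiquitin ligase and a subunit of the UV-damaged DNA binding complex (chromosome 19, 10605327 to 10629819, GRCm38), had 8596 young and 12863 old reads. Its FPKM ratio was 1.35 [1.31 to 1.39] and its log2 ratio was 0.43, above that of 91.4% of all genes. Rad23b, which stabilises XPC and carries ubiquitinated cargo (chromosome 4, 55350043 to 55392237), was at 168 and 195 FPKM, a ratio of 1.16 [1.12 to 1.20]. Both abundant genes thus had intervals above 1 and serve in other ubiquitin pathways too.

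The other partners in these complexes were lower or even. Xpc, which encodes the lesion sensor itself, was at 14.2 FPKM (young) and 11.7 FPKM (old), a ratio of 0.820 [0.732 to 0.919]. Cetn2, the centrin that binds XPC and also sits in centrioles, was at 39.0 and 33.2 FPKM, a ratio of 0.851 [0.761 to 0.953]. Ddb2, the subunit that grips ultraviolet photoproducts, was low in both at 5.03 and 4.71 FPKM, and its ratio of 0.937 [0.746 to 1.18] held 1. The value of Ddb2 is uncertain, since 23.8% of its exon bases overlap Acp2 (18.4 and 18.4 FPKM) and, with the use of strand not known here, reads of overlapping genes cannot be told apart. The group's median log2 ratio was −0.08, or −0.01 when all genes were centred on their median.

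Of the 3 genes of transcription-coupled recognition, 2 had intervals wholly below 1, against 33.5% of all genes and 36.8% of genes with similar reads. All 3 had log2 ratios below 0, as did 59.6% of all genes. Uvssa, which encodes the protein that brings TFIIH and the deubiquitinase USP7 to stalled polymerase (chromosome 5, 33378549 to 33419754), had 956 young and 697 old reads. At 9.38 and 6.17 FPKM its ratio was 0.657 [0.595 to 0.726], the lowest of the 38 genes, and 5.81% of all genes had a lower log2 ratio. Its log2 ratio of −0.53 was short of 1.5-fold, and was −0.60, past 1.5-fold, at a pseudocount of 0.1 FPKM. Ercc6, which encodes CSB, the remodeller that binds stalled polymerase, was at 11.1 and 8.99 FPKM, a ratio of 0.812 [0.718 to 0.919]. Ercc8, which encodes CSA, the substrate receptor of its ubiquitin ligase, rested on 82 and 69 reads, and its ratio of 0.759 [0.543 to 1.06] held 1. The median of the group was −0.29, and −0.22 after centring.

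Xpa and RPA hold and mark the open helix. Xpa, the scaffold that verifies damage, was at 25.9 FPKM (young) and 20.96 FPKM (old), a ratio of 0.809 [0.689 to 0.949]. The subunits of the single-strand binding trimer had ratios from 0.806 to 0.986, and their counting intervals overlapped. The large subunit Rpa1 was even at 45.3 and 44.7 FPKM (0.986 [0.922 to 1.05]). The middle subunit Rpa2 was at 33.4 and 30.4 FPKM (0.910 [0.795 to 1.04]). The small subunit Rpa3 was lower at 42.0 and 33.9 FPKM (0.806 [0.705 to 0.923]).

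In TFIIH the core and the kinase module differed in their values. Of the 7 core genes, 6 had log2 ratios below 0 and 4 had intervals wholly below 1, against 59.6% and 33.5% of all genes and, for the intervals, 36.8% of genes with similar reads. They had a median of −0.25, or −0.19 after centring. Gtf2h5, the small p8 subunit that stabilises the complex, was at 50.8 FPKM (young) and 40.1 FPKM (old), a ratio of 0.790 [0.729 to 0.856]. The ring subunits Gtf2h2 (16.7 and 13.2 FPKM) and Gtf2h3 (20.01 and 15.9 FPKM) had ratios of 0.794 [0.664 to 0.949] and 0.793 [0.694 to 0.905]. Gtf2h4, the partner of the XPB ATPase, was at 28.3 and 23.6 FPKM, a ratio of 0.832 [0.721 to 0.961]. None of these 4 subunits is a helicase, and neither is Gtf2h1, whose interval held 1.

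The other 3 core genes, of which Ercc3 and Ercc2 encode helicases, had intervals that held 1. Ercc3, which encodes XPB, was at 19.2 FPKM (young) and 19.98 FPKM (old) (1.04 [0.937 to 1.16]), and Gtf2h1, the p62 docking subunit, was at 41.0 and 39.2 FPKM (0.955 [0.877 to 1.04]). Ercc2, which encodes the XPD helicase, was at 18.5 and 16.5 FPKM (0.890 [0.780 to 1.02]) and is uncertain, since 42.7% of its exon bases overlap other genes. In the kinase module, which phosphorylates RNA polymerase, Cdk7 was at 16.4 and 16.2 FPKM, its cyclin Ccnh at 24.1 and 24.5 FPKM and the assembly factor Mnat1 at 14.2 and 13.9 FPKM. All 3 intervals held 1, with ratios between 0.981 and 1.02. The module's median log2 ratio of −0.02 became 0.05 after centring.

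Of the 3 incision nuclease genes, 2 had intervals wholly below 1, against 33.5% of all genes. Their median was the lowest of the 8 role groups at −0.46, or −0.39 after centring. Ercc5, which encodes XPG, the nuclease that cuts on the 3′ side (chromosome 1, 44147744 to 44181260), was at 44.6 FPKM on 1348 reads (young) and 31.9 FPKM on 1070 reads (old), a ratio of 0.716 [0.660 to 0.776]. Ercc4, which encodes XPF, the catalytic subunit that cuts on the 5′ side (chromosome 16, 13109684 to 13150617), was at 11.7 and 8.23 FPKM, a ratio of 0.704 [0.611 to 0.811]. Its obligate partner Ercc1 was at 32.2 and 29.6 FPKM, and its ratio of 0.918 [0.797 to 1.06] held 1. With only 3 genes, the median is the value of Ercc4 itself, and it was −0.295 among genes averaging 10 FPKM or more, a filter that Ercc4 fails.

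**Figure D2:**
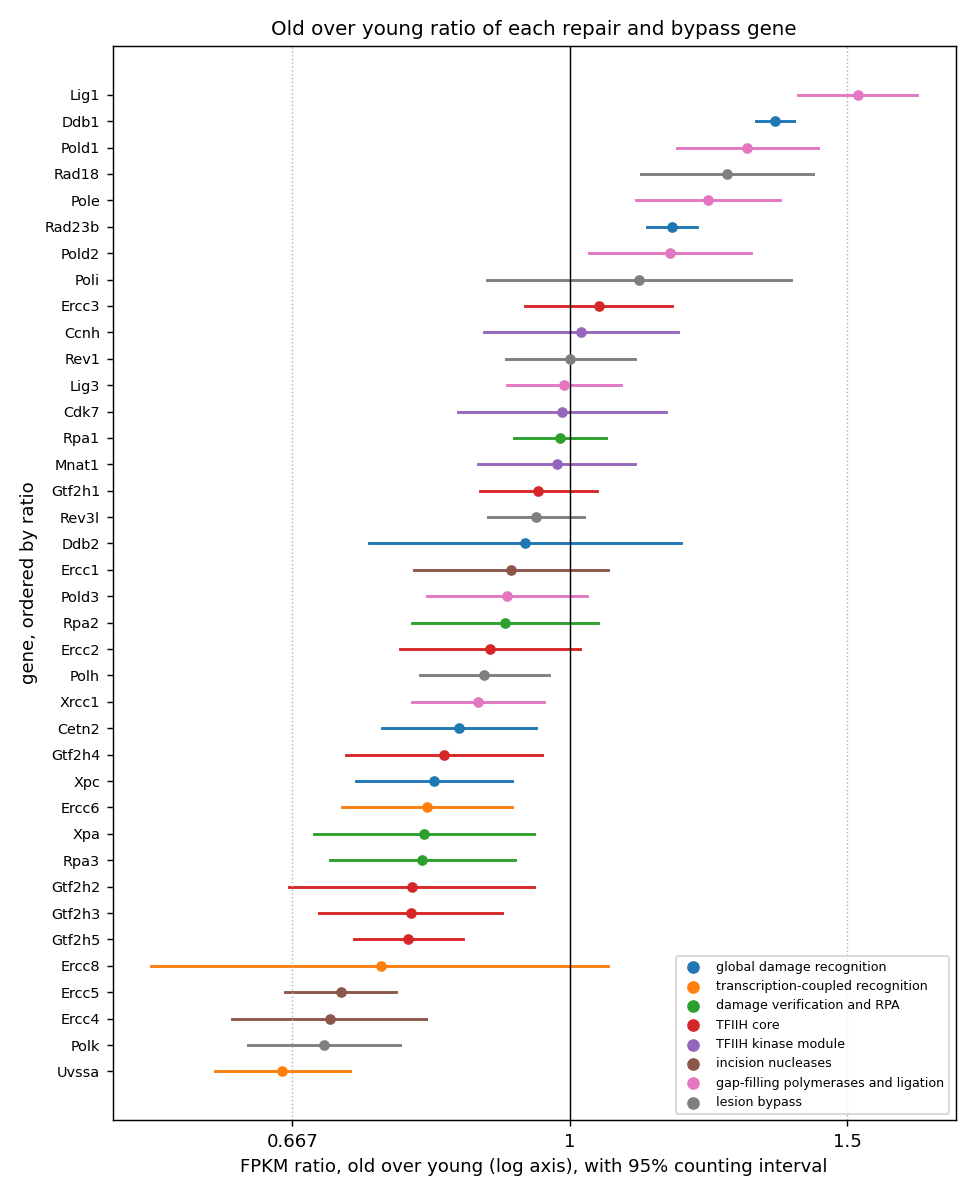
FPKM ratio of old over young for each of the 38 genes (points, horizontal log axis) with its 95% counting interval (lines), ordered by ratio and coloured by role; dotted lines mark 1.5-fold in either direction. Lig1 is highest at 1.52 and Uvssa lowest at 0.657, and no gene reaches 2 or 0.5.

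Gap filling and ligation was the group with the highest median, 0.21, and held 4 of the 7 members whose interval lay above 1. Those 4 were 57.1% of its genes, against 20.5% of all genes and 21.7% of genes with similar reads. Of 24 replication and proliferation genes, described below, 12 also had intervals wholly above 1, so a high share was not particular to this group. Lig1, DNA ligase 1, which seals repair patches and Okazaki fragments (chromosome 7, 13277283 to 13311433), was at 23.4 FPKM on 831 reads (young) and 35.6 FPKM on 1403 reads (old). Its ratio was 1.52 [1.40 to 1.66]. Its log2 ratio of 0.59 lay just past 1.5-fold (0.585) and was 0.52 at a pseudocount of 5 FPKM, under it. Pold1, the catalytic subunit of polymerase delta, was at 23.4 and 30.3 FPKM, a ratio of 1.296 [1.17 to 1.44]. Pold2, a second subunit of that polymerase, was at 39.3 and 45.4 FPKM (1.16 [1.03 to 1.302]), and Pole, the catalytic subunit of polymerase epsilon, at 13.6 and 16.7 FPKM (1.22 [1.10 to 1.36]).

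The other 3 genes of the group were lower or even. Pold3, the polymerase delta subunit that also takes part in lesion bypass, was at 28.9 FPKM (young) and 26.4 FPKM (old) (0.913 [0.812 to 1.03]). Lig3, the ligase that seals repair patches with XRCC1 and in mitochondria, was even at 22.4 and 22.3 FPKM (0.991 [0.912 to 1.08]), though Rffl overlaps 25.1% of its exon bases. Xrcc1, its scaffold, was at 52.6 and 46.0 FPKM, a ratio of 0.874 [0.794 to 0.963]. Within the group, Lig1, Pold1, Pold2 and Pole were thus higher and Pold3, Lig3 and Xrcc1 were not.

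Replication and proliferation genes are given beside this group because the polymerases and Lig1 also serve replication. Over 24 such genes the median log2 ratio was 0.10, and −0.0112 among genes averaging 10 FPKM or more. Of the 24, 12 were above 0 and 12 below, against 40.4% and 59.6% of all genes. Counting intervals lay wholly above 1 for 12 of the 24 and wholly below 1 for 7, against 20.5% and 33.5% of all genes. In the whole list there were 0 at 1.5-fold in either direction, against 5.52% higher and 4.47% lower of all genes. The largest differences were in Orc1, an origin recognition subunit, at 7.07 and 10.7 FPKM, and in the helicase subunits Mcm7 (80.9 and 111 FPKM, 36.4% of sequence words shared with other genes) and Mcm6 (55.0 and 75.2 FPKM). In sets put together after the values were seen, Mcm2 to Mcm7, all 6 subunits of the replicative helicase, had log2 ratios of 0.21 to 0.45. Mki67, Top2a, Ccnb1, Ccna2 and Cdk1, which peak towards mitosis, had log2 ratios of −0.30 to −0.19. Those sets do not divide the list by function, since the replication genes Prim1 (−0.34), Gins1 (−0.25), Tyms (−0.22) and Rrm2 (−0.07) also had log2 ratios below 0. Their part in the values of Lig1, Pold1, Pold2 and Pole was not tested.

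The lesion bypass genes went both ways, with 3 of 6 above 0, against 40.4% of all genes. Their median was −0.03, which became 0.03 after centring. Polk, which encodes polymerase kappa, an extender past bulky adducts that also fills repair gaps (chromosome 13, 96480690 to 96542579), was at 22.7 FPKM on 734 reads (young) and 15.8 FPKM on 569 reads (old). Its ratio of 0.699 [0.625 to 0.781] was the second lowest of the 38 genes. Polh, which encodes polymerase eta, the enzyme that copies correctly across cyclobutane thymine dimers, was at 19.8 and 17.5 FPKM, a ratio of 0.883 [0.803 to 0.970]. Rad18, the ubiquitin ligase that marks PCNA to call these polymerases, was higher at 12.2 and 15.3 FPKM, a ratio of 1.26 [1.11 to 1.43].

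The remaining bypass genes had intervals that held 1. Rev3l, the catalytic subunit of polymerase zeta, was at 16.0 FPKM (young) and 15.3 FPKM (old) (0.952 [0.887 to 1.02]). Rev1, the scaffold of the bypass polymerases, was at 43.3 FPKM in both (1.001 [0.911 to 1.10]), though Eif5b overlaps 26.6% of its exon bases (74.4 and 79.2 FPKM). Poli, which encodes polymerase iota, was low at 3.56 and 3.93 FPKM (1.11 [0.887 to 1.38]).

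Partner genes within a library were compared for 19 pairs, chosen with the values known. The 2 libraries' counting intervals stood apart for 6 pairs and overlapped for 13. The share among pairs of other genes was not worked out, so these counts do not set the pairs apart from other genes. Each pair's shift between the libraries restates the ratios of its 2 genes given above. Ddb1 was 84.8 [72.3 to 100.1] times Ddb2 in the young and 122 [105 to 144] times Ddb2 in the old library, and Rad23b was 11.8 [10.9 to 12.9] and 16.7 [15.4 to 18.2] times Xpc. Lig1 was level with Lig3 in the young at 1.04 and higher in the old at 1.599 [1.48 to 1.73]. Pold3 was 1.24 [1.10 to 1.39] times Pold1 in the young and 0.870 [0.783 to 0.967] times in the old, and Polk was 1.14 [1.04 to 1.26] and 0.907 [0.814 to 1.01] times Polh. The intervals were also apart for Gtf2h5 over Gtf2h1 (1.24 and 1.02).

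The other 13 pairs had overlapping intervals, with ratios that were close in some and not in others. Ercc5 over Ercc4 was 3.81 [3.42 to 4.25] in the young and 3.87 [3.43 to 4.38] in the old library, and Ercc1 over Ercc4 was 2.75 [2.40 to 3.16] and 3.59 [3.10 to 4.15]. Ccnh over Cdk7 was 1.47 and 1.51, and Mnat1 over Cdk7 was 0.864 and 0.857. These ratios within a library depend on the gene lengths used: with merged exon lengths Ddb1 was 23.8 and 34.3 times Ddb2, 33 of the 38 ratios left their counting interval and 10 crossed 1. With those lengths Pold3 was 0.962 and 0.678 times Pold1, and Polk 0.880 and 0.697 times Polh, under 1 in both libraries. Lig1 was then 1.32 and 2.02 times Lig3. The shift of a pair between the libraries does not depend on the gene lengths.

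**Figure D3:**
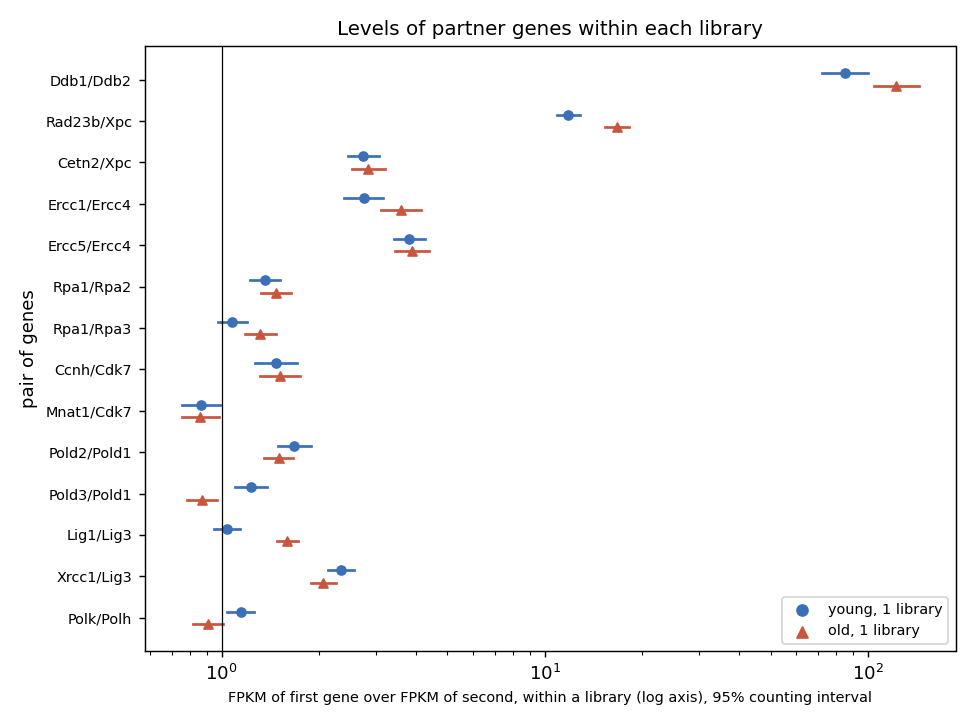
FPKM of the first gene over FPKM of the second within the young (circles) and the old library (triangles), with 95% counting intervals, on a log axis, for 14 of the 19 pairs. Ddb1 over Ddb2 is 84.8 and 122, and the intervals of the 2 libraries stand apart for Ddb1 over Ddb2, Rad23b over Xpc, Pold3 over Pold1, Lig1 over Lig3 and Polk over Polh.

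Summed over the 38 genes, there were 37346 young and 43869 old reads, a ratio of 1.06 [1.04 to 1.07] once scaled to library size. Ddb1 and Rad23b set this direction: without them the sums were 23653 and 24446 reads, a scaled ratio of 0.932 [0.915 to 0.949]. By role, the scaled ratio was 1.24 [1.21 to 1.26] for global recognition and 1.13 [1.09 to 1.17] for gap filling and ligation. Most of the 15133 young and 20775 old reads of global recognition were of Ddb1 (8596 and 12863) and Rad23b (5097 and 6560). The median log2 ratio of that group was −0.08. The scaled ratio was 0.716 [0.664 to 0.772] for transcription-coupled recognition, 0.7496 [0.704 to 0.798] for the nucleases and 0.877 [0.842 to 0.914] for the TFIIH core. For damage verification and RPA it was 0.925 [0.878 to 0.974], for lesion bypass 0.940 [0.903 to 0.980] and for the kinase module 0.994 [0.921 to 1.07]. Uvssa held 956 of the 1583 young and 697 of the 1257 old reads of transcription-coupled recognition. Ercc5 held 1348 of the 2194 young and 1070 of the 1824 old reads of the nucleases. In those groups the intervals of Ercc8 and Ercc1 held 1.

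**Figure D4:**
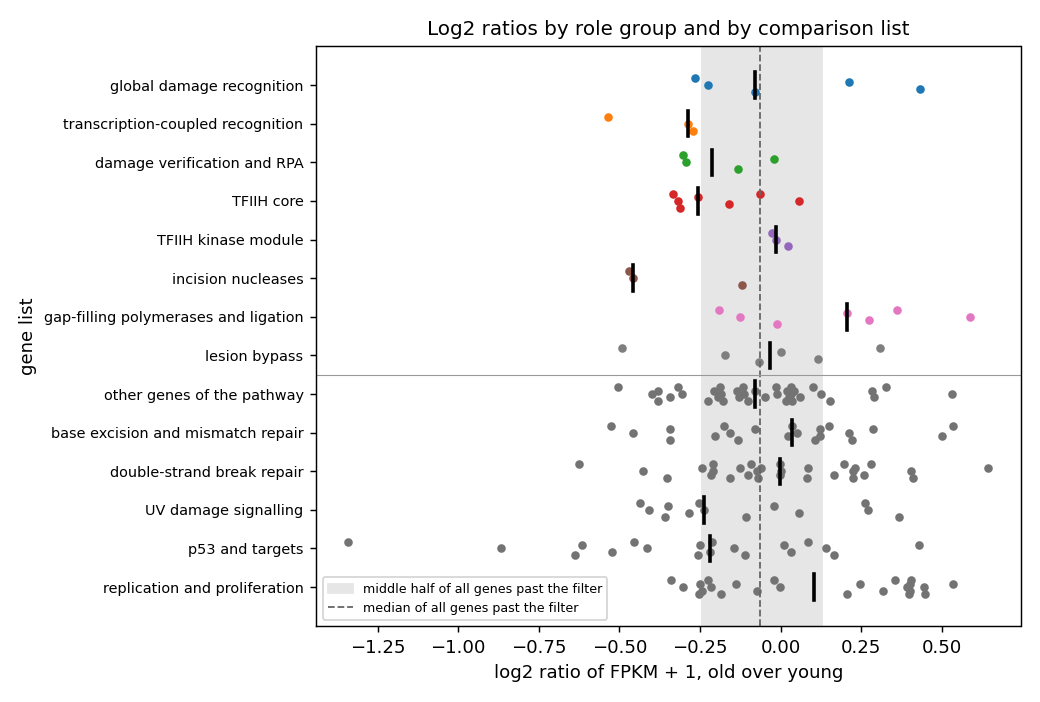
Log2 ratio of FPKM + 1, old over young, of each gene (points) with the list median (black bars), for the 8 role groups above the line and 6 comparison lists below it; the grey band is the interquartile range of all genes past the filter and the dashed line their median of −0.07. The incision nucleases have the lowest median, −0.46, and gap filling and ligation the highest, 0.21.

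Other genes of excision repair and bypass were also near even. All 37 passed the filter, 0 were at 1.5-fold in either direction, against 5.52% of all genes higher and 4.47% lower, and the median log2 ratio was −0.08. Among those with the largest differences were the repriming enzyme Primpol at 10.5 FPKM (young) and 7.09 FPKM (old), the protease Sprtn that clears DNA-protein crosslinks at 15.6 and 11.6 FPKM, and the clamp loader subunit Rfc2 at 44.8 and 34.2 FPKM. Primpol, Sprtn and Rfc2 have 17.3%, 10.4% and 15.1% of their exon bases overlapped by other genes.

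Lists of neighbouring repair pathways place these values. At 1.5-fold or more, 5.52% of all genes were higher and 4.47% lower. Base excision and mismatch repair had a median of 0.03 over 21 genes with 0 at 1.5-fold, led by the endonuclease Apex1 (35.0 and 51.2 FPKM), whose exons overlap Pip4p1 over 61.7% of bases, and the glycosylases Smug1 (6.83 and 4.44 FPKM) and Mpg (11.5 and 16.7 FPKM), with 35.7% of bases overlapped by Nprl3. Double-strand break repair had a median of −0.003 over 29 genes, of which 1 (3.45%) was at 1.5-fold higher and 1 at 1.5-fold lower. The higher was the recombinase paralog Rad51b (2.50 and 4.47 FPKM) and the lower the ubiquitin ligase Rnf8 (7.55 and 4.54 FPKM). Of the sequence words of Rnf8, 36.8% are shared with other genes. Xrcc3, another recombinase paralog, was at 7.11 and 5.04 FPKM.

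Damage signalling and p53 lists had lower medians. The 13 genes of UV damage signalling had a median of −0.24 with 0 at 1.5-fold, against 5.52% of all genes higher and 4.47% lower. The largest differences were in the clamp subunit Hus1 (12.3 and 8.81 FPKM), the kinase Atr (10.2 and 7.45 FPKM) and the fork protector Timeless (17.8 and 23.2 FPKM). Among genes averaging 10 FPKM or more that median was −0.0262. Of 19 measured genes of p53 and its targets, 4 were at 1.5-fold lower and 0 higher, against 4.47% and 5.52% of all genes, with a median of −0.22. They were led by Btg2 (69.4 and 26.8 FPKM), Rrm2b (10.7 and 5.41 FPKM) and Trp53inp1 (67.6 and 43.1 FPKM). Ddb2 and Xpc, known p53 targets in human cells, had log2 ratios of −0.08 and −0.27 here.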

How the data were processed

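The authors deposited 1 FPKM value per gene and library. Per the submitters' processing notes the tools were edgeR, fastp, HTSeq and STAR, with build mm10. Tool roles and versions, annotation and strandedness were not given in the sources used here. Libraries were grouped by their age label. Symbols and positions came from GENCODE M21 (GRCm38), which held 55227 of 55487 identifiers.

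Read numbers were worked out from the FPKM values: multiplied by the rounded mean transcript length, 97.6% of 40738 values above 0 were whole reads within 0.01, as were those of all 38 members. They served for read totals and counting intervals (95%). Differences were expressed as log2 of FPKM + 1, old minus young, for genes averaging 1 FPKM or more, which understates differences of low genes. With 1 library per group no test was run. Members were named whole, and from each other list the 3 or 4 genes with the largest differences, of which 1 is not reported here. Members and lists were chosen with earlier results of these data known; 1 listed symbol had no identifier. Exon overlap and shared 50-base words marked uncertain genes (10% or more: Ddb2, Ercc2, Lig3 and Rev1). The calculation was tested on simulated data. Alternatives were pseudocounts of 0.1 and 5 FPKM, no filter or 10 FPKM, centring, scaling without the 10 most abundant genes, and leaving out uncertain genes. Python 3.11.15, pandas 2.3.3 and scipy 1.17.1 were used.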

Additional observations from a re-analysis of the deposited data

How the results depend on the processing

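No paired analysis was possible because each age has 1 library and no result comes from a test, and leaving out a library leaves no comparison. The counts at 2-fold stayed at 0 under 7 other settings and with merged exon lengths. The count at 1.5-fold higher fell from 1 to 0 at a pseudocount of 5 FPKM and to 0 with exon union lengths in place of mean transcript lengths, and that at 1.5-fold lower went from 0 to 1 at a pseudocount of 0.1 FPKM. The other genes of the pathway went from 0 to 1 at 1.5-fold after centring. The median of damage signalling moved from −0.24 to −0.0262 among genes averaging 10 FPKM or more, where fewer genes are tested. The medians of the kinase module, lesion bypass and double-strand break repair (−0.0033 to 0.062) crossed 0 after centring. That of replication and proliferation crossed 0 among genes averaging 10 FPKM or more (0.10 to −0.0112), and that of base excision and mismatch repair without uncertain genes (0.0344 to −0.0799). Centring also turned the sign of 5 members, Cdk7, Gtf2h1, Lig3, Mnat1 and Rpa1, all close to 0. The merged exon lengths were chosen after seeing the data. Limits are the single library per age, the day label that follows age, and depth, since the members rest on 151 to 21459 reads over both libraries.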
